A study of Mus musculus with 6 samples.

Results

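Interferon-stimulated genes were followed through 6 droplet libraries of single-cell RNA (10X Genomics, 3′ chemistry), a set of 39 genes among the 31053 genes of the count tables. The set was taken as named: Isg15, Usp18, Ifit1, Ifit2, Ifit3, Oas1a, Oas2, Oas3, Oasl1, Oasl2, Mx1, Rsad2, Cmpk2, Isg20, Slfn5, Rtp4, Xaf1, Ifi44, Parp14, Trim30a, Ifitm3, Bst2, Ly6e, Ddx58, Ifih1, Dhx58, Zbp1, Irf7, Irf9, Stat2, Ifi35, Gbp2, Gbp3, Gbp5, Gbp7, Igtp, Irgm1, Iigp1 and Ifi47. All 39 had at least 1 unique molecular identifier (UMI, 1 captured RNA molecule) in each of the 6 libraries. Levels are UMIs per 1000000 UMIs of the kept cells of a library (CPM).

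There were 3 libraries of dendritic cells (DCs), the antigen-presenting cells that prime T cells, grown from C57BL/6 bone marrow with GM-CSF and collected in suspension. Untreated DCs were neither nucleofected nor stimulated. VD3 stimulated DCs were given active vitamin D3 (1e-06 M) on culture day 7 and left for 24 h. Ndrg2-KO DCs were nucleofected with Cas9 protein and guide RNAs against Ndrg2, so that in comparisons of these cells the effects of nucleofection and of losing Ndrg2 cannot be told apart. The other 3 libraries were of mouse skin wounds explanted on day 10 after a hydrogel seeded with control DCs, a hydrogel seeded with Ndrg2-KO DCs or a blank hydrogel, from C57BL/6 mice 6 weeks old. The labels call the control DCs untreated, whereas the methods describe nucleofection with guides that target no gene. The wound tissue of several mice entered 1 library per group.

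A cell was kept if it had 300 genes or more, fewer than 100000 UMIs and a mitochondrial share below 10%. The DC libraries held 7257 to 8825 such cells and 116461484 to 143627482 UMIs, and the wound libraries 1948 to 5681 cells and 29675507 to 49240341 UMIs. Between any 2 libraries at most 19 kept cell barcodes were shared. Ndrg2 stood at 4.62, 1.42 and 0.884 CPM in untreated, VD3 stimulated and Ndrg2-KO DCs, although reads from the 3′ end need not show a cut in the gene. Itgax, which encodes the DC integrin CD11c, and H2-Ab1, a chain of MHC class II, were present in all 3 cultures. With 1 library per condition there is no replicate check and no test, and the 95% intervals given here cover counting error only. A gene was counted as higher or lower when 2 libraries differed at least 2-fold and held at least 100 UMIs of it together.

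Interferons are secreted proteins that warn cells of infection or damage. Type I interferons such as interferon-beta signal through a receptor of Ifnar1 and Ifnar2, and Stat2 and Irf9 then act at interferon-stimulated response elements in DNA. Interferon-gamma, made mainly by T cells and natural killer cells, signals through Ifngr1 and Ifngr2 and acts at gamma-activated sequences. The genes switched on include direct antiviral effectors, sensors of foreign nucleic acid and GTPases that attack the vacuoles of intracellular pathogens. Introduced nucleic acid can itself be sensed as foreign.

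The members lay on 15 chromosomes, with 7 on chromosome 11 and 5 each on chromosomes 3 and 5 (GENCODE M21, GRCm38). Several formed runs of related genes. Gbp5, Gbp7, Gbp3 and Gbp2 followed each other on the plus strand between chr3:142493978-142522344 and chr3:142620602-142638008. Ifit2, Ifit3 and Ifit1 lay in 1 run with other Ifit genes on chromosome 19, and Rsad2 and Cmpk2 lay back to back on chromosome 12. RefSeq promoters (GRCm38.p6, 250 bases before to 50 after the start site) were found for 30 of the 39 members. None was matched for Usp18, Oas2, Mx1, Rtp4, Parp14, Ly6e, Dhx58, Zbp1 and Iigp1. The core letters of the response element, GAAANNGAAA on either strand, occurred in 19 of the 30 (63.33%), against 3.993% of 27025 genes. The gamma-activated sequence TTCNNNGAA, which may overlap the core, occurred in 9 of the 30 (30%), against 9.554% of genes. A match is a description of the letters and not a bound site.

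Upstream sequences are shown for 6 members because their levels illustrate the patterns described next. Among the cells kept here the first 4 were highest in Ndrg2-KO DCs, whereas Gbp7 and Gbp5 were highest in VD3 stimulated DCs. Rsad2 was also higher in VD3 stimulated than in untreated DCs, at 6.27 against 1.95 CPM. Each sequence runs 5′ to 3′ towards the gene and ends at the RefSeq start site or, where a GENCODE exon comes first, before that exon. The stretch for Gbp5 precedes the first exon of its shorter GENCODE transcripts and lies in an intron of a transcript that starts farther upstream. Capitals mark each match to the core on either strand. In Isg15, 3 overlapping matches formed 1 block of capitals, and Ifit3 held 2 separate matches.
Isg15 (chr4:156200819-156200998, minus strand): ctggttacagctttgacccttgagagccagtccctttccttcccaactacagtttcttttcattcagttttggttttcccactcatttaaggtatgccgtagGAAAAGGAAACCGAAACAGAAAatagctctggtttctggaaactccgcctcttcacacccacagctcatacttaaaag
Ifit3 (chr19:34583349-34583528, plus strand): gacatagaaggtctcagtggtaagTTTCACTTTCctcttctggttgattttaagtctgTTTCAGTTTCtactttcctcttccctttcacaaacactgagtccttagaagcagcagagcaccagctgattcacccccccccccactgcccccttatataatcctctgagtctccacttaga
Rsad2 (chr12:26456453-26456632, minus strand): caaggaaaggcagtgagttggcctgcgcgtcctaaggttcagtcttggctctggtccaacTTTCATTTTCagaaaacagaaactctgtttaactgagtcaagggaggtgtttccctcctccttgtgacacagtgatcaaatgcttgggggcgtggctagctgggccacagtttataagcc
Oas3 (chr5:120777662-120777839, minus strand): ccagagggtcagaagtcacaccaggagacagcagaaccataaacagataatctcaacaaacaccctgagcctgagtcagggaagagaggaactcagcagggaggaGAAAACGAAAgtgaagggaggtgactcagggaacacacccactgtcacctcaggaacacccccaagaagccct
Gbp7 (chr3:142530156-142530335, plus strand): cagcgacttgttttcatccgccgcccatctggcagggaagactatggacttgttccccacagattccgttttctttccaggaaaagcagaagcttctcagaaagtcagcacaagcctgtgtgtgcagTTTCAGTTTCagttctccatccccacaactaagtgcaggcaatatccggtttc
Gbp5 (chr3:142496754-142496899, plus strand): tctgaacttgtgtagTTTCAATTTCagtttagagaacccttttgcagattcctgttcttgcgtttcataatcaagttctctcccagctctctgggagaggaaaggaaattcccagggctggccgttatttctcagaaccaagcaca

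In the DC cultures the summed level of the 39 members was 1278 CPM (95% interval 1272 to 1284) without treatment, 3050 CPM (3040 to 3060) after VD3 and 1940 CPM (1932 to 1947) in Ndrg2-KO DCs. Most of these UMIs came from 3 membrane proteins, Ifitm3, Bst2 and Ly6e. Without them the sums were 473.8, 773.6 and 819.9 CPM, and the median member stood at 7.08, 8.34 and 15.05 CPM. The typical member was therefore highest in the Ndrg2-KO culture, while the sum over all members was highest in the VD3 culture.

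Against untreated DCs, 20 of the 38 members with enough UMIs were at least 2-fold higher in Ndrg2-KO DCs, where 9.12% of all 12461 genes were. Lower by at least 2-fold were 2 members, Ly6e and Gbp5, against 7.94% of genes. The median log2 ratio of the members was 1.14, beside -0.06 over all genes. Only Iigp1 had too few UMIs. In VD3 stimulated DCs 8 of 35 members were at least 2-fold higher than in untreated DCs (3.68% of genes) and 1, Oasl1, was lower (6.61% of genes), with a median log2 ratio of 0.08 for the members and -0.08 for all genes. Between the 2 manipulated cultures, 18 of 38 members were higher in Ndrg2-KO than in VD3 stimulated DCs (12.1% of genes) and 4 were lower (8.08% of genes). The comparisons share libraries and are not independent of each other.

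**Figure D1:**
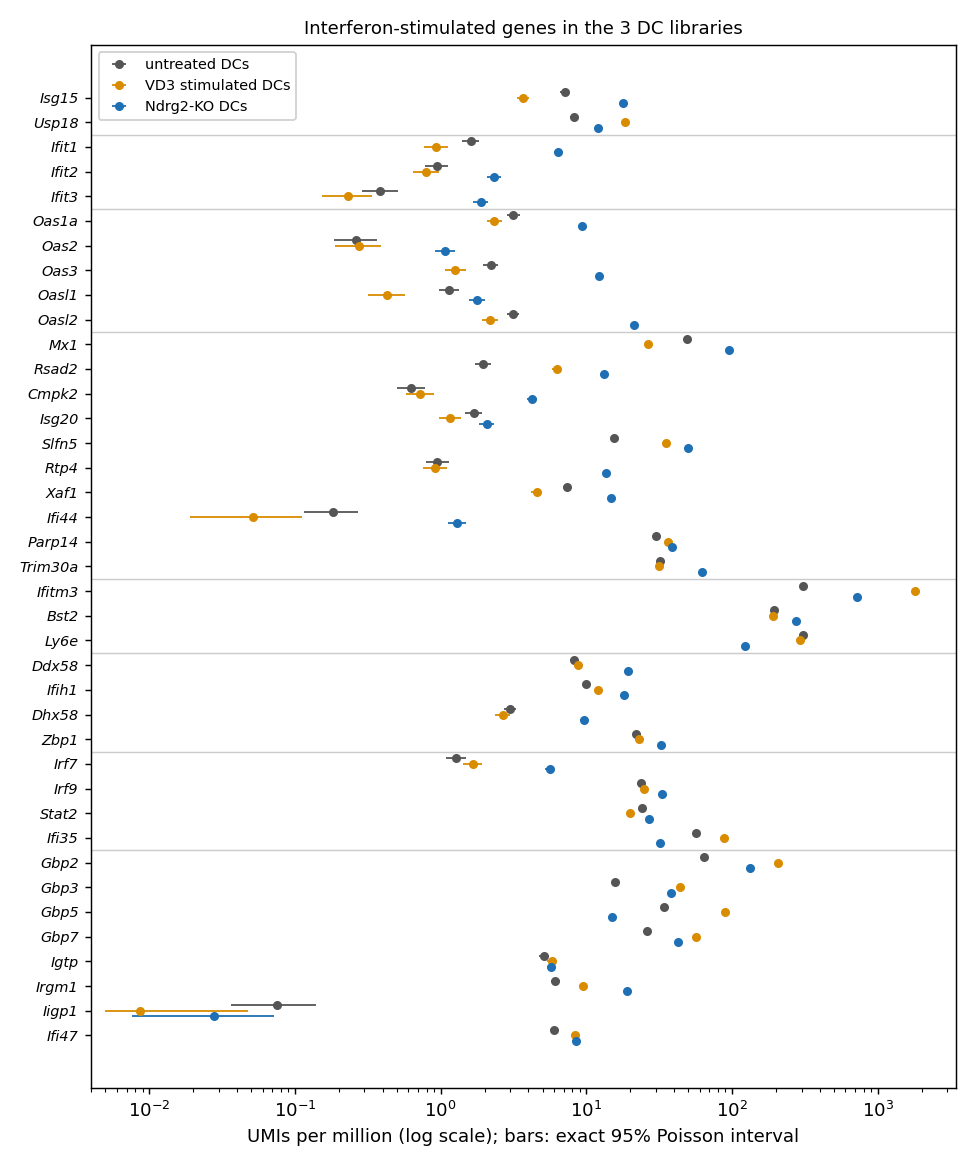
Level of each of the 39 members in the 3 DC libraries, in CPM on a log axis, ordered by role with lines between the roles. Points are libraries and bars are exact 95% Poisson intervals; the Ndrg2-KO points lie to the right of both others for the Ifit and Oas genes, and the VD3 point lies farthest right for Ifitm3 and Gbp2.

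Isg15 encodes a ubiquitin-like protein that is joined to other proteins during infection, and Usp18 the protease that removes it and that also damps type I interferon signalling. Isg15 stood at 7.08 CPM without treatment, 3.68 CPM after VD3 and 17.8 CPM in Ndrg2-KO DCs. It was 2.51-fold higher in Ndrg2-KO than in untreated DCs (log2 ratio 1.33, 95% interval 1.22 to 1.44) and lowest in the VD3 culture. Usp18 had another order, with 8.25, 18.3 and 12.03 CPM in the same libraries. Its highest level was in VD3 stimulated DCs, 2.22-fold over untreated DCs (log2 ratio 1.15, but 0.78 when each cell counted alike).

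The Ifit proteins bind RNA with foreign 5′ ends. All 3 Ifit genes were at least 2-fold higher in Ndrg2-KO than in untreated DCs. Ifit1 stood at 1.61, 0.936 and 6.41 CPM in untreated, VD3 stimulated and Ndrg2-KO DCs. Ifit2 stood at 0.943, 0.799 and 2.34 CPM in that order. Ifit3 stood at 0.385, 0.232 and 1.88 CPM, on 51, 27 and 270 UMIs, and can share reads with its near copy Ifit3b. The Ndrg2-KO culture was the highest of the 3 for each of them, and neither Ifit1 nor Ifit2 was 2-fold apart between the other cultures. Their log2 ratios of Ndrg2-KO to untreated DCs, 1.99, 1.31 and 2.29, were 3.40, 2.35 and 2.86 with cells under 5% mitochondrial UMIs.

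Oligoadenylate synthetases make a messenger that activates RNase L when they meet double-stranded RNA. 4 of the 5 members of this family were at least 2-fold higher in Ndrg2-KO than in untreated DCs. Oasl2 stood at 3.13 CPM without treatment, 2.18 CPM after VD3 and 21.3 CPM in Ndrg2-KO DCs, a 6.80-fold difference between the last and the first (log2 ratio 2.76, 2.62 to 2.92). Oas3 followed with 2.20, 1.26 and 12.1 CPM. Both were lowest in the VD3 culture. Oas1a, which can share reads with Oas1g, stood at 3.16, 2.34 and 9.32 CPM. Oas2 stood at 0.264, 0.275 and 1.07 CPM, and its log2 ratio of Ndrg2-KO to untreated DCs was 2.02, but 0.84 when each cell counted alike. Oasl1 was the exception, at 1.15, 0.429 and 1.77 CPM: it missed 2-fold in Ndrg2-KO DCs and was the 1 member at least 2-fold lower after VD3. With cells under 5% mitochondrial UMIs the log2 ratios of Oasl1 were 1.06 in Ndrg2-KO DCs and -0.67 after VD3.

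Among the other antiviral effectors was the widest single ratio of Ndrg2-KO to untreated DCs, and 5 of the 10 were at least 2-fold higher (9.12% of all genes). Rtp4, a chaperone of receptors that also binds viral RNA polymerase complexes, stood at 0.950 CPM without treatment, 0.919 CPM after VD3 and 13.5 CPM in Ndrg2-KO DCs. The 14.2-fold difference between Ndrg2-KO and untreated DCs (log2 ratio 3.83, 3.57 to 4.10) was the largest among the members with the cells kept here. With cells under 5% mitochondrial UMIs the log2 ratios of Rsad2 (4.26) and Ifi44 (4.11) exceeded that of Rtp4 (3.99). Rsad2 encodes viperin, an enzyme that makes a chain-terminating nucleotide, and its neighbour Cmpk2 a nucleotide kinase. Rsad2 stood at 1.95, 6.27 and 13.1 CPM, so it was high in both manipulated cultures. Cmpk2 stood at 0.626, 0.721 and 4.21 CPM and was high only in the Ndrg2-KO culture. Slfn5, of the Schlafen family, stood at 15.5, 35.1 and 50.02 CPM and, like Rsad2, was at least 2-fold over untreated DCs in both. After VD3 the log2 ratio of Slfn5 was 1.18, but 0.95 with cells under 5% mitochondrial UMIs and 0.99 when each cell counted alike. Ifi44 stood at 0.181, 0.0515 and 1.30 CPM, on 24, 6 and 187 UMIs.

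Mx1 encodes a GTPase that blocks influenza viruses, and C57BL/6 mice carry a defective allele of it. Its RNA stood at 49.4, 26.4 and 95.5 CPM in untreated, VD3 stimulated and Ndrg2-KO DCs, just under 2-fold lower after VD3 and just under 2-fold higher in Ndrg2-KO DCs than in untreated DCs. Xaf1, a partner of an apoptosis inhibitor, had the same order with 7.42, 4.57 and 14.7 CPM. Trim30a stood at 31.9, 31.4 and 62.4 CPM and can share reads with Trim30d. These 3 members lay next to the 2-fold limit in Ndrg2-KO DCs, with 1.94-, 1.97- and 1.96-fold. With cells under 5% mitochondrial UMIs the log2 ratio of Mx1 dropped from 0.95 to 0.33, while those of Xaf1 (1.34) and Trim30a (1.24) passed 2-fold. Parp14, an ADP-ribosyltransferase, stood at 29.9, 36.5 and 38.7 CPM, and the exonuclease gene Isg20 at 1.68, 1.16 and 2.07 CPM. Neither was 2-fold apart between any 2 cultures.

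The 3 membrane proteins differed from each other. Ifitm3, which keeps viruses from fusing with endosomes, stood at 304.7 CPM without treatment, 1794 CPM after VD3 and 724.5 CPM in Ndrg2-KO DCs. It was 5.89-fold over untreated DCs in the VD3 culture (log2 ratio 2.56, 2.54 to 2.57) and 2.38-fold in the Ndrg2-KO culture. Ly6e, a lipid-anchored surface protein, stood at 305.3, 290.4 and 122.1 CPM and was thus lowest in the Ndrg2-KO culture. The log2 ratio of Ly6e to untreated DCs was -1.32 in the Ndrg2-KO culture, but -0.47 when only cells under 5% mitochondrial UMIs were kept and -0.97 when each cell counted alike. Bst2, which encodes tetherin, stood at 194.6, 191.3 and 273.1 CPM, within 2-fold in all 3.

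Among the sensors of foreign nucleic acid, Ddx58 (RIG-I) stood at 8.20 CPM without treatment, 8.76 CPM after VD3 and 19.4 CPM in Ndrg2-KO DCs. Dhx58 (LGP2), which modulates the RIG-I family, stood at 3.002, 2.66 and 9.57 CPM. Both were at least 2-fold higher in the Ndrg2-KO culture than in either other culture. Ifih1 (MDA5) stood at 10.02, 12.1 and 18.2 CPM. Zbp1, a sensor of nucleic acid in the Z form, stood at 22.02, 22.9 and 32.8 CPM. These 2 had the same highest library without reaching 2-fold, except for Ifih1 with cells under 5% mitochondrial UMIs (log2 ratio 1.06).

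Irf7, the transcription factor that amplifies type I interferon production, stood at 1.28, 1.66 and 5.59 CPM in untreated, VD3 stimulated and Ndrg2-KO DCs. It was 4.39-fold higher in Ndrg2-KO than in untreated DCs (log2 ratio 2.13, 1.89 to 2.38). After VD3 its log2 ratio was 0.38, but it passed 2-fold with cells under 5% mitochondrial UMIs. The factors that carry the receptor's signal stayed within 2-fold. Irf9 stood at 23.6, 24.9 and 32.9 CPM, and Stat2 at 23.9, 19.8 and 26.9 CPM. Ifi35, which binds Batf and other leucine zipper proteins, stood at 56.96, 87.4 and 32.0 CPM, with its lowest level in the Ndrg2-KO culture.

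The GTPases known best as targets of interferon-gamma were the group with the most members higher in VD3 stimulated DCs. All 4 guanylate-binding proteins of the set, which coat the vacuoles of pathogens and help to open them, were at least 2-fold over untreated DCs there, 3 of them also with cells under 5% mitochondrial UMIs. Gbp2 stood at 64.0 CPM without treatment, 207.3 CPM after VD3 and 131.8 CPM in Ndrg2-KO DCs. Gbp3 stood at 15.8, 43.8 and 38.4 CPM. Both were at least 2-fold higher in each manipulated culture, although the Ndrg2-KO ratio of Gbp2, 1.04 on the log2 scale, was 0.98 with cells under 5% mitochondrial UMIs, 0.98 without clusters of low depth and 0.94 over totals without mitochondrial and ribosomal protein genes. Gbp7 stood at 25.9, 56.3 and 42.7 CPM and passed 2-fold in the VD3 culture (log2 ratio 1.12) but not in the Ndrg2-KO culture (0.72). With cells under 5% mitochondrial UMIs this was the other way round for Gbp7, at 0.89 and 1.02. Gbp5, which promotes the NLRP3 inflammasome, stood at 34.3, 88.9 and 15.1 CPM. It was 2.59-fold higher in VD3 stimulated than in untreated DCs and 2.28-fold higher in untreated than in Ndrg2-KO DCs. The Ndrg2-KO ratio of Gbp5 stayed past 2-fold in each alternative run on the cultures, between -1.54 and -1.08 on the log2 scale. Gbp2 and its near copy Gbp2b may share reads.

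Of the immunity-related GTPases, which act on the same vacuoles, Irgm1 stood at 6.11 CPM without treatment, 9.47 CPM after VD3 and 18.9 CPM in Ndrg2-KO DCs. Igtp stood at 5.13, 5.84 and 5.75 CPM, and Ifi47 at 6.02, 8.34 and 8.43 CPM. Irgm1 was 3.09-fold higher in Ndrg2-KO than in untreated DCs, while Igtp and Ifi47 differed by less than 1.5-fold between cultures. With cells under 5% mitochondrial UMIs the log2 ratio of Ifi47 in Ndrg2-KO DCs was 1.01 and that of Igtp 0.53. Iigp1 had 10, 1 and 4 UMIs in the cultures, too few for a ratio.

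**Figure D2:**
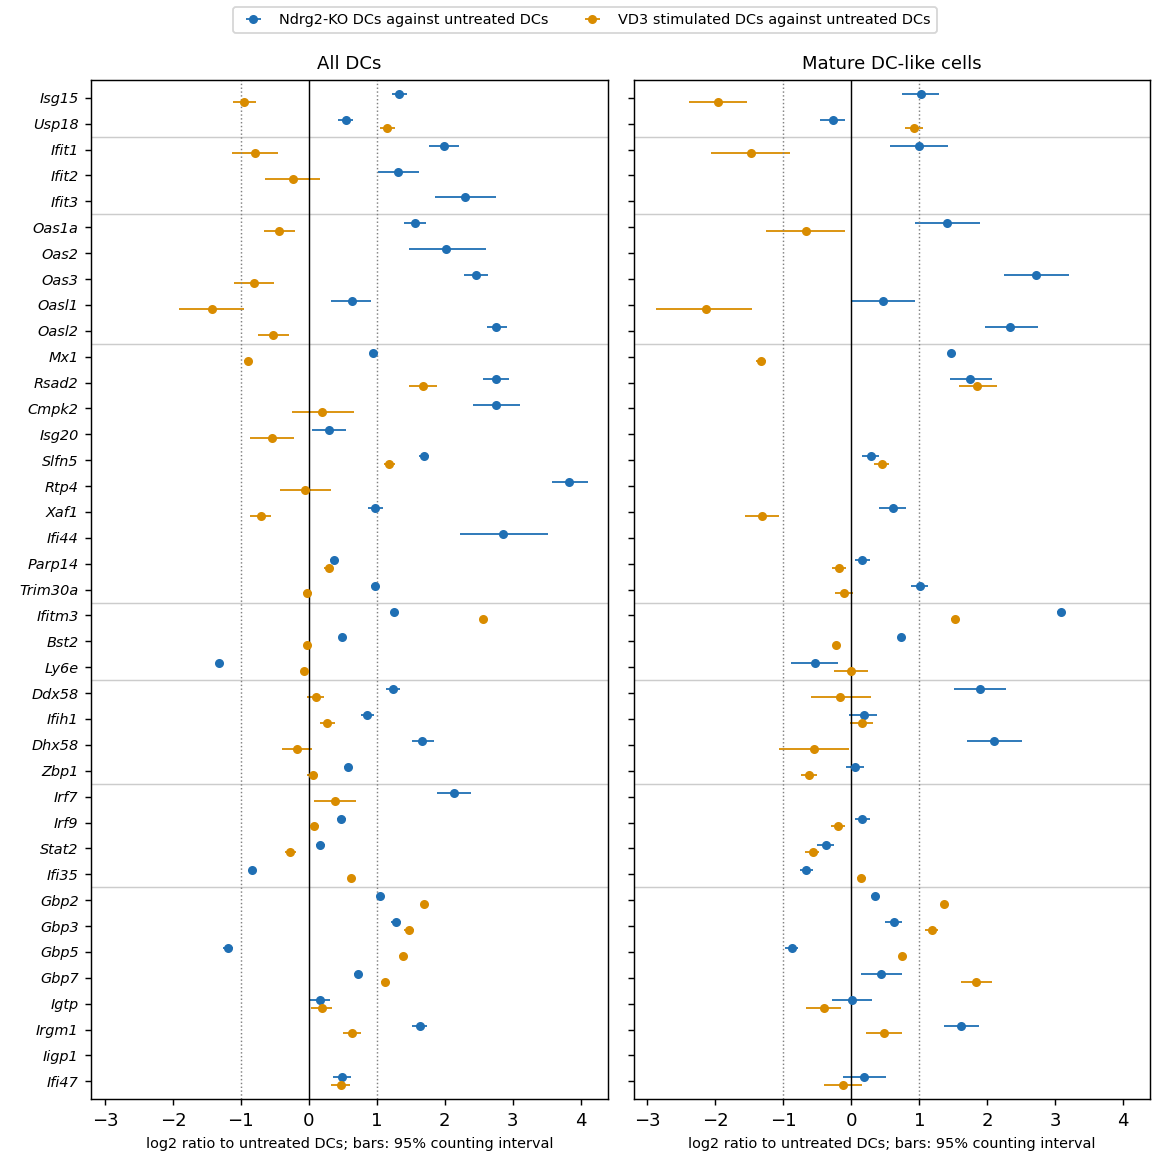
Log2 ratio of each member in Ndrg2-KO and VD3 stimulated DCs to untreated DCs, over all kept cells on the left and over mature DC-like cells on the right, for members with at least 100 UMIs in the libraries compared. Bars are exact 95% counting intervals and dotted lines mark 2-fold; over all cells the ratios of Isg15 are 1.33 in Ndrg2-KO and -0.95 in VD3 stimulated DCs.

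The promoter letters were set beside the ratios as a description. Of the 19 members with the core, 12 were at least 2-fold higher in the Ndrg2-KO culture than without treatment (9.12% of all genes) and 1 was lower (7.94%). Of the 11 whose promoter lacked it, 5 were higher and 0 lower, and of 8 with enough UMIs and no promoter in the table, 3 were higher and 1 lower. After VD3, where 3.68% of all genes were higher and 6.61% lower, 7 of 18 members with the core were higher and 0 lower, 0 of 10 without it were higher and 1 lower, and 1 of 7 with no promoter was higher and 0 lower. Between the Ndrg2-KO and VD3 cultures (12.1% of all genes higher, 8.08% lower) 7 of 19 with the core were higher and 2 lower, with a median log2 ratio of 0.59, and 7 of 11 without it were higher and 1 lower, with a median of 1.68. Of 8 with no promoter, 4 were higher and 1 lower there.

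The genes upstream of the members were read from lists. None of the 12 interferon genes looked for had 100 UMIs in any 2 cultures together. Ifnb1 had 0, 1 and 0 UMIs in untreated, VD3 stimulated and Ndrg2-KO DCs. Of 11 genes of receptors and signalling, 0 were 2-fold apart between Ndrg2-KO and untreated DCs (9.12% of all genes higher, 7.94% lower). In VD3 stimulated DCs (3.68% of all genes higher, 6.61% lower) Ifngr1, a chain of the interferon-gamma receptor, was higher at 105.8 CPM, against 51.6 CPM in untreated DCs. Ifnlr1, the receptor chain of interferon-lambda, was lower there at 0.799 CPM, against 2.73 CPM.

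Of 15 other sensors and adaptors with at least 100 UMIs, of 16 listed, 4 were at least 2-fold higher in Ndrg2-KO than in untreated DCs (9.12% of all genes) and 0 lower (7.94%). They were Tlr7, an endosomal receptor of single-stranded RNA (14.3 against 4.78 CPM), the DNA sensor family gene Ifi204 (38.6 against 5.01 CPM), the kinase gene Ikbke (63.6 against 31.7 CPM) and Unc93b1 (285.5 against 134.2 CPM), which carries such receptors to endosomes. In VD3 stimulated DCs, where 3.68% of all genes were higher and 6.61% lower, 2 were higher, Unc93b1 at 348.0 CPM and the DC transcription factor gene Irf8 at 307.0 against 132.5 CPM. Of 8 restraints of the response with enough UMIs, of 9 listed, Socs1 (26.9 against 76.3 CPM) and Socs3 (11.0 against 28.8 CPM), inhibitors of cytokine receptor signalling, were at least 2-fold lower in the Ndrg2-KO culture. In VD3 stimulated DCs 1 restraint, Samhd1, which depletes nucleotides, was higher (697.3 against 298.4 CPM).

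Of 92 other interferon-induced genes listed, 88 could be read from the count tables. In Ndrg2-KO against untreated DCs 16 of 76 were at least 2-fold higher (9.12% of all genes) and 4 lower (7.94%). Ifi27l2a, an interferon-alpha-inducible gene, stood at 585.8 against 115.8 CPM and Lgals3bp, a secreted galectin ligand, at 110.7 against 29.5 CPM, whereas Ifitm1, a neighbour and relative of Ifitm3, stood at 53.6 against 604.4 CPM. In VD3 stimulated against untreated DCs 4 of 75 were higher, among them Cxcl10, a chemokine for T cells, at 5.42 against 1.71 CPM, and 9 were lower, where 3.68% and 6.61% of all genes were. In Ndrg2-KO against VD3 stimulated DCs 23 of 75 were higher (12.1% of all genes) and 7 lower (8.08%), beside 1 and 0 of the receptors and signalling, 4 and 0 of the sensors and adaptors and 0 and 2 of the restraints. The median log2 ratios of the other interferon-induced genes were 0.30, -0.08 and 0.41 in the 3 comparisons.

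The cultures differed in their cells, and these differences ran alongside the members' values. Clustering of all DCs without the members gave 15 clusters, 10 of which held over 90% of their cells from 1 library. Neutrophil-like cells made up 12.77%, 12.45% and 0.464% of the kept cells in the untreated, VD3 and Ndrg2-KO cultures, and the 8 neutrophil markers summed to 5331, 6341 and 398.4 CPM. The 11 markers of immature DCs or macrophages summed to 10533, 4721 and 30872 CPM. Plasmacytoid DCs, the cells known for making much type I interferon, were hardly seen: their 5 markers summed to 6.11, 3.64 and 1.96 CPM, and Siglech and Ly6d had no UMI in Ndrg2-KO DCs. The median share of mitochondrial UMIs was 5.30%, 5.60% and 6.60%. The part of these differences in the members' levels was not tested. The comparison within 1 state that follows sets mostly different clusters side by side and does not test it.

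Mature DC-like cells, marked by Ccr7, Fscn1 and Ccl22, were the 1 DC state with over 2000 cells in each culture, at 37.07%, 39.48% and 26.50% of the kept cells. Different clusters held most of them, cluster 2 in untreated, 1 in VD3 stimulated and 6 in Ndrg2-KO DCs. Within this state the members summed to 1155, 1486 and 2239 CPM in untreated, VD3 stimulated and Ndrg2-KO DCs. Of the 30 members with enough UMIs, 11 were at least 2-fold higher in Ndrg2-KO than in untreated cells (9.75% of genes) and 0 were lower (3.14% of genes), with a median log2 ratio of 0.54 for the members and 0.21 for all genes. In cluster 2 alone the members summed to 1157, 1468 and 1553 CPM in the same order of cultures, on 2582, 24 and 149 cells. In mature DC-like cluster 12, of low depth, they summed to 927.9, 1253 and 1935 CPM, on 72, 175 and 114 cells.

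Among members with enough UMIs, Ifitm3 had the largest ratio within mature DC-like cells, at 77.5 CPM without treatment, 223.7 CPM after VD3 and 656.1 CPM in Ndrg2-KO cells. The order of the cultures was therefore not that of all cells, where VD3 stimulated DCs were highest. Mx1 stood at 121.5, 48.2 and 336.2 CPM. Oas3 stood at 1.17, 0.676 and 7.65 CPM, and Dhx58 at 1.78, 1.21 and 7.61 CPM. These 3 were highest in the Ndrg2-KO cells and lowest in the VD3 cells. Rtp4, the widest ratio over all cells, was low in mature DC-like cells, with 0.0973, 0.0199 and 1.10 CPM, on too few UMIs for a ratio there. Ly6e stood at 5.76, 5.77 and 3.96 CPM here, no longer 2-fold apart.

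In VD3 stimulated against untreated mature DC-like cells, 5 of 28 members were at least 2-fold higher (3.13% of genes) and 5 lower (3.36% of genes). Higher were Gbp2, Gbp3, Gbp7, Rsad2 and Ifitm3. Lower were Isg15, Ifit1, Oasl1, Mx1 and Xaf1. Gbp2 stood at 336.6 against 130.8 CPM and Isg15 at 1.23 against 4.79 CPM, so Gbp2 and Isg15 differed in opposite directions within this class. Most cells of the class lay in different clusters in the VD3 and untreated cultures.

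**Figure D3:**
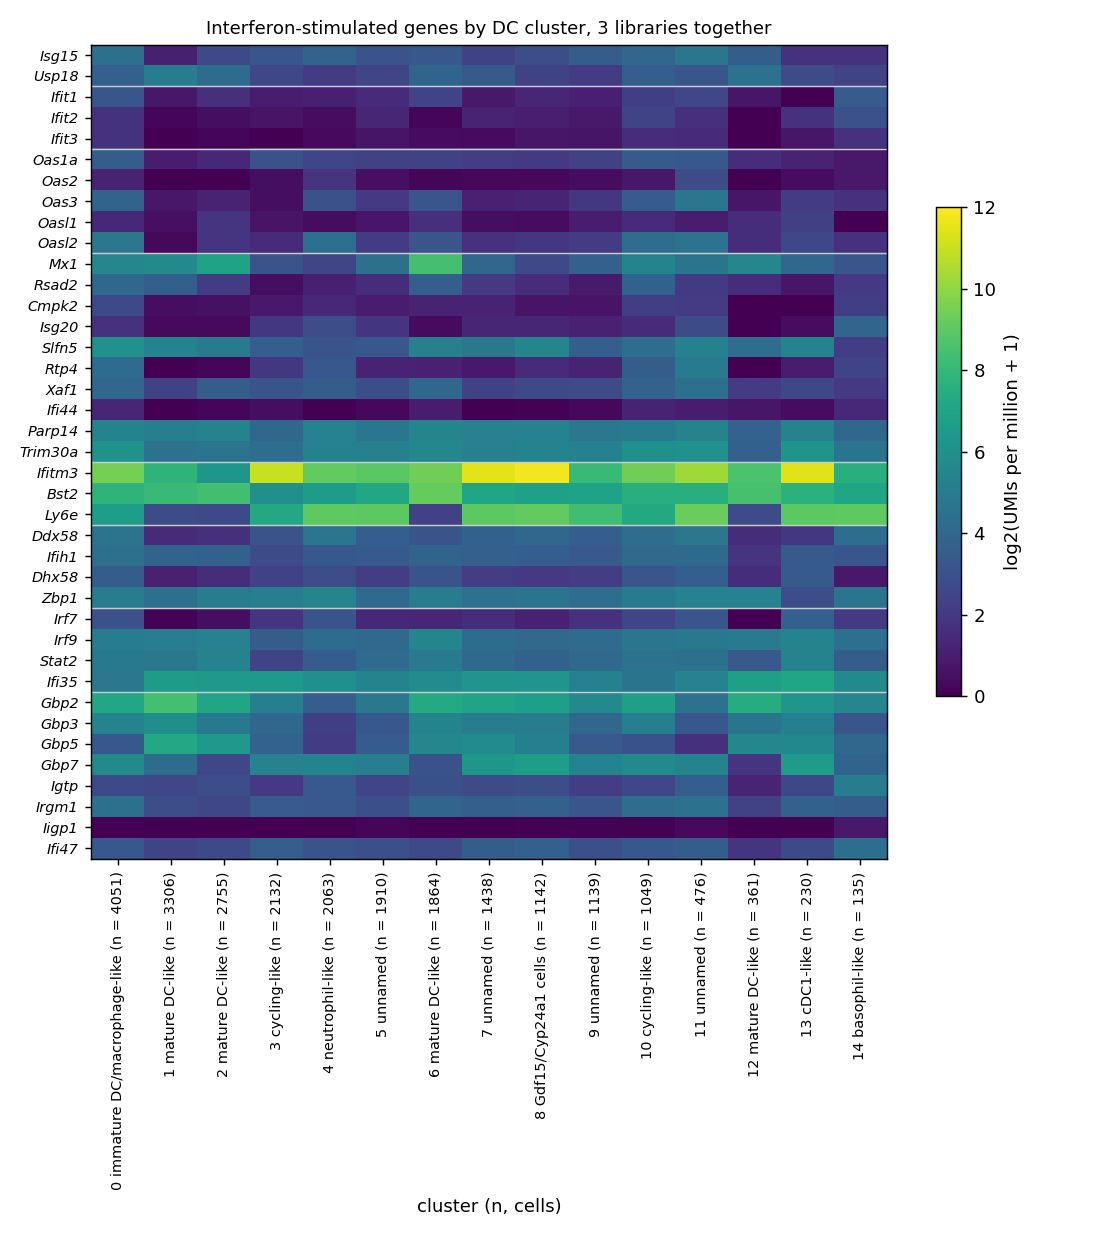
Level of each member in the 15 clusters of DC cells, the 3 libraries together, as log2 of CPM plus 1 on the colour scale. Columns give the cluster, its name where the fixed markers allowed one, and its cells; Mx1 is brightest in mature DC-like cluster 6, and Ly6e is dark in the mature DC-like clusters.

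Across states in 1 culture, 3 of 32 members with enough UMIs in all 3 cultures were at least 2-fold higher in mature DC-like than in all other cells in each of the 3 cultures: Mx1, Bst2 and Gbp5. 8 of the 32 were at least 2-fold lower in each, namely Oas1a, Oasl2, Isg20, Rtp4, Ly6e, Ddx58, Irf7 and Gbp7. Over all genes 5.67% were higher and 14.9% lower in all 3. Gbp5 was thus on the higher and its neighbour Gbp7 on the lower side. Immature DC or macrophage-like cluster 0, with 4045 of its 4051 cells from Ndrg2-KO DCs, held 50.76% of that culture. In its Ndrg2-KO cells Rtp4 stood at 17.3, Oasl2 at 26.0, Isg15 at 20.8 and Ifitm3 at 723.0 CPM. In VD3 stimulated DCs, 1139 cells formed a cluster marked by Gdf15 and Cyp24a1, the vitamin D hydroxylase. Their Ifitm3 level of 3516 CPM was above the 223.7 CPM of mature DC-like cells of the same culture.

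The members were spread thinly over many cells. To compare cells of unlike depth, each was drawn down to 2000 UMIs, which left out 472 untreated, 1149 VD3 stimulated and 134 Ndrg2-KO cells. UMIs of at least 5 members were then found in 174 of 6785 untreated cells (2.56%, 95% Clopper-Pearson interval 2.20 to 2.97%), 563 of 7676 VD3 stimulated cells (7.33%, 6.76 to 7.94%) and 880 of 7835 Ndrg2-KO cells (11.2%, 10.5 to 11.9%). Without thinning the shares were 72.8%, 68.7% and 90.2%. Without Ifitm3, Bst2 and Ly6e they were 0.663%, 1.16% and 2.74% of thinned cells. The Ndrg2-KO culture was highest in each version. Within Ndrg2-KO DCs the share was 10.3% in mature DC-like and 11.9% in immature DC or macrophage-like cells. The highest 10% of thinned cells held 36.65%, 30.84% and 30.80% of the summed UMIs of the 36 other members, which was not most of that sum. Members with few UMIs carry little weight in it. UMIs from free RNA were not removed, and their part was not tested.

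In the wounds the members summed to 2923 CPM (2904 to 2942) with control DCs, 4212 CPM (4194 to 4230) with Ndrg2-KO DCs and 3406 CPM (3387 to 3426) with blank hydrogels. The median member stood at 23.5, 44.6 and 32.2 CPM. Against control DC wounds, 12 of 39 members were at least 2-fold higher in Ndrg2-KO DC wounds (3.92% of genes) and 1 lower (5.28% of genes), with a median log2 ratio of 0.60 beside -0.14 over all genes. In blank hydrogel wounds 6 were higher (3.06% of genes) and 1 lower (3.17% of genes), with a median of 0.53 beside -0.03. Between Ndrg2-KO DC and blank hydrogel wounds 0 of 39 were 2-fold apart in either direction, where 1.39% of genes were higher and 1.32% lower, and the median log2 ratio was 0.14. Control DC wounds, which are shared by the first 2 comparisons, had the lowest sum and the lowest median member. Blank hydrogel wounds lay between the others in both.

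The cell mixtures of the wounds differed as well. Neutrophil-like cells made up 23.51% of control DC, 50.96% of Ndrg2-KO DC and 45.61% of blank hydrogel wound cells. Fibroblast-like cells made up 24.49%, 8.59% and 9.29%. When every cell cluster was given the same weight in each library, a step added after these data were seen, 8 members were at least 2-fold higher in Ndrg2-KO DC than in control DC wounds, where 1.39% of all genes were, and 4 in blank hydrogel wounds (0.739%). With that weighting 0 members were lower in either, against 1.04% and 0.848% of all genes.

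Isg15 stood at 79.9 CPM in control DC, 218.3 CPM in Ndrg2-KO DC and 137.4 CPM in blank hydrogel wounds. Rsad2 stood at 32.1, 103.4 and 65.6 CPM. Both followed the order of the sums, and their log2 ratios to control DC wounds were 1.45 (1.39 to 1.52) and 1.69 (1.59 to 1.79) with Ndrg2-KO DCs. With clusters weighted alike both ratios stayed above 2-fold. Ifit1 stood at 21.3, 50.8 and 32.2 CPM, and Ifit3 at 5.76, 16.0 and 11.4 CPM. Isg20 stood at 23.5, 80.9 and 51.7 CPM, and Rtp4 at 28.4, 70.7 and 48.4 CPM. With clusters weighted alike the log2 ratios of Isg20 and Rtp4 in Ndrg2-KO DC wounds were 0.89 and 0.96, under 2-fold. In blank hydrogel wounds those of Rsad2 and Isg20, 1.03 and 1.14, were 0.78 and 0.40. Oas3 stood at 9.20, 22.9 and 23.2 CPM and was as high in blank hydrogel as in Ndrg2-KO DC wounds. With clusters weighted alike its log2 ratios to control DC wounds dropped from 1.31 to 0.59 with Ndrg2-KO DCs and from 1.33 to 0.66 with blank hydrogels.

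Gbp5 had the widest ratio, at 6.03 CPM in control DC, 30.8 CPM in Ndrg2-KO DC and 19.4 CPM in blank hydrogel wounds, a log2 ratio of 2.35 (2.13 to 2.58) between the first 2. Gbp2 stood at 69.0, 198.5 and 136.5 CPM, and Ifi47 at 26.0, 68.5 and 53.3 CPM. In culture Ndrg2-KO DCs had less Gbp5 than untreated DCs, but those values are of the DCs themselves and these of wound cells. Zbp1 stood at 33.5, 72.5 and 62.4 CPM, and Parp14 at 53.2, 110.0 and 92.0 CPM. The log2 ratio of Parp14 in Ndrg2-KO DC wounds, 1.05, was 0.84 with clusters weighted alike. Mx1 stood at 2.93, 3.80 and 5.87 CPM, and its log2 ratio in blank hydrogel wounds, at the 2-fold limit as given, was 0.55 without the highest doublet scores and 0.45 when each cell counted alike. Iigp1, at 118.1, 45.9 and 52.4 CPM, was the 1 member at least 2-fold lower than in control DC wounds, among 3 members below them with Ndrg2-KO DCs and 7 with blank hydrogels. Its log2 ratios to control DC wounds were -1.36 in Ndrg2-KO DC and -1.17 in blank hydrogel wounds, and -0.65 and -0.38 with clusters weighted alike.

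The remaining members were within 2-fold of control DC wounds in both comparisons. Among them Ifitm3 stood at 891.7, 1326 and 1010.0 CPM in control DC, Ndrg2-KO DC and blank hydrogel wounds, and Ly6e at 650.5, 661.6 and 611.5 CPM. Irf7 stood at 62.2, 89.8 and 80.7 CPM. Slfn5 stood at 159.2, 165.7 and 148.0 CPM, the least varied of the effectors.

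**Figure D4:**
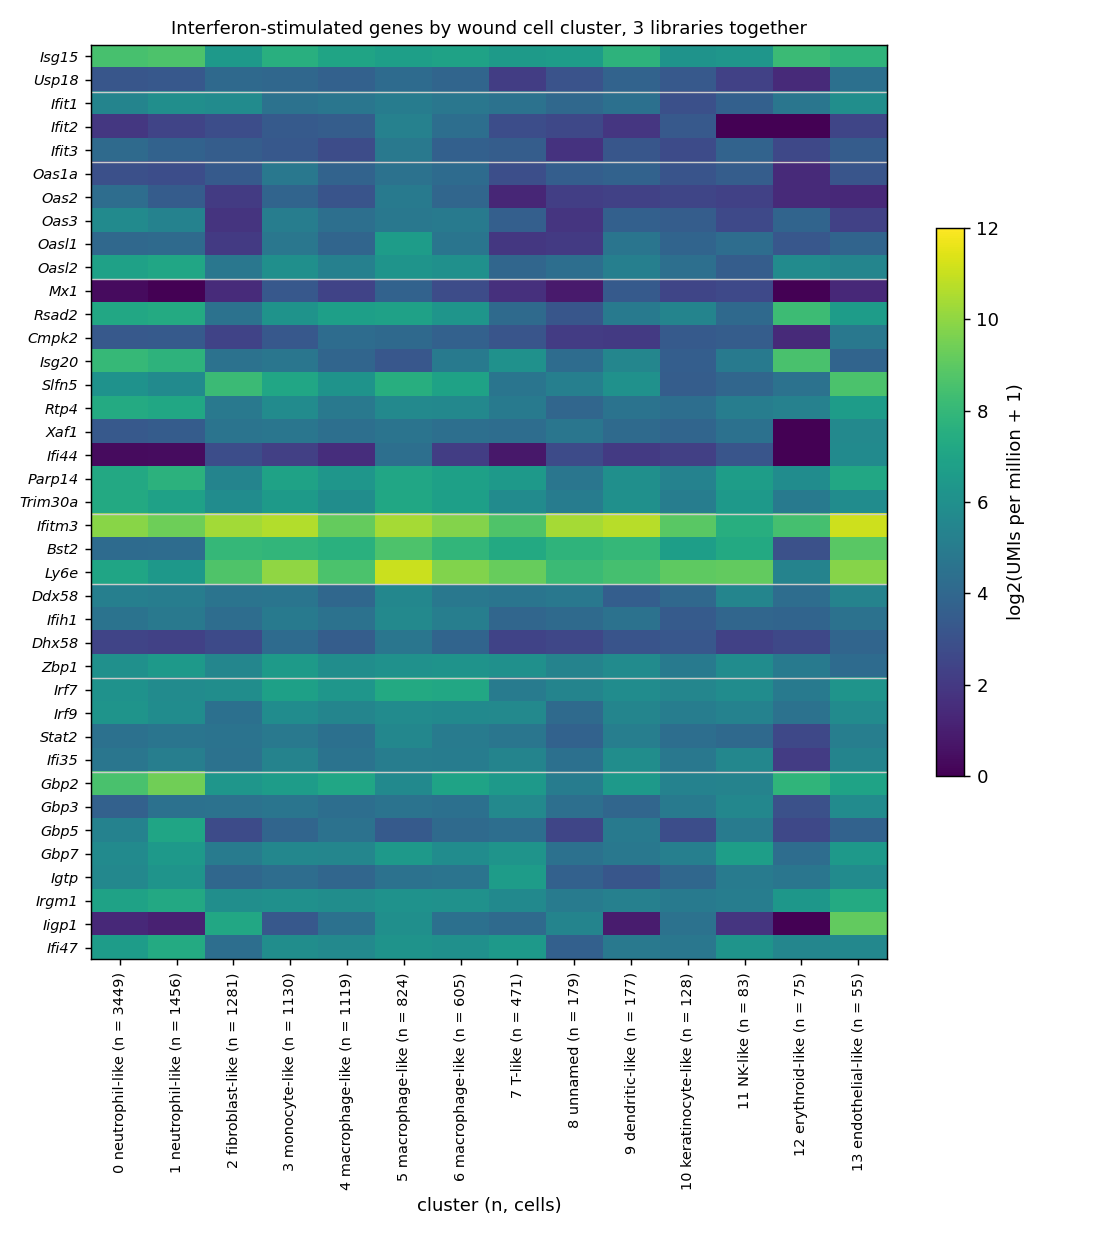
Level of each member in the 14 clusters of wound cells, the 3 libraries together, as log2 of CPM plus 1 on the colour scale. Columns give the cluster, its name where the fixed markers allowed one, and its cells; Gbp2 and Isg15 are bright in the neutrophil-like clusters 0 and 1, Ly6e in macrophage-like cluster 5 and Iigp1 in endothelial-like cluster 13.

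Which cell cluster had the highest level of a member was read in each wound by itself, over the 12 clusters with at least 20 cells in every wound, a limit set after the data were seen. The endothelial-like cells (27, 18 and 10 in control DC, Ndrg2-KO DC and blank hydrogel wounds) and the erythroid-like cells (4, 63 and 8) were therefore not ranked. For 19 of the 39 members the same cluster was highest in all 3 wounds. For 10 of them it was macrophage-like cluster 5, marked by Lyve1 and Cd209 genes: Ly6e, Oasl1, Ifit2, Ifit3, Oas2, Ifih1, Dhx58, Stat2, Bst2 and Ifi44. Gbp2 and Gbp5 were highest in neutrophil-like cluster 1, and Oas3, Isg20 and Rtp4 in neutrophil-like cluster 0. Slfn5 and Iigp1 were highest in fibroblast-like cells, Oas1a in monocyte-like cells and Igtp in T-like cells. Neutrophil-like cells had almost no Mx1 (0, 0.102 and 0.341 CPM in control DC, Ndrg2-KO DC and blank hydrogel wounds) and little Bst2 (7.99, 17.5 and 19.9 CPM). The endothelial-like cells had an Iigp1 level of 841.7 CPM in control DC wounds, where fibroblast-like cells had 167.7 CPM and neutrophil-like cells 3.07 CPM.

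In summed members neutrophil-like cells differed more from control DC wounds than macrophage-like, monocyte-like or fibroblast-like cells did. The members of neutrophil-like cells summed to 1937, 4340 and 3521 CPM in control DC, Ndrg2-KO DC and blank hydrogel wounds, with median depths of 3279, 2928 and 3359 UMIs per cell. Cluster 0 held 359 of 458, 1843 of 2895 and 1247 of 1552 of them, and cluster 1 the other 99, 1052 and 305. 22 of 32 members were at least 2-fold higher in Ndrg2-KO DC than in control DC wounds (4.31% of genes) and 0 lower (2.21% of genes), with a median log2 ratio of 1.46 for the members and -0.03 for all genes. In blank hydrogel wounds 11 of 27 were higher (4.79% of genes) and 0 lower (0.776% of genes). Whether neutrophil-like cells differed more than the other types was not tested.

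Ifi47 stood at 18.4 CPM in neutrophil-like cells of control DC, 157.3 CPM in those of Ndrg2-KO DC and 87.5 CPM in those of blank hydrogel wounds, an 8.53-fold difference between the first 2 (log2 ratio 3.09, 2.57 to 3.67). Gbp2 stood at 140.7, 584.9 and 397.3 CPM in the same cells. Isg15 stood at 178.2, 472.0 and 275.7 CPM. All 3 kept the order control DC, blank hydrogel, Ndrg2-KO DC. Zbp1 stood at 20.9, 91.0 and 52.7 CPM and Ifit1 at 14.1, 62.8 and 33.8 CPM. Ifit3 had too few UMIs in control DC wounds for a narrow interval, with a log2 ratio of 3.40 between 1.84 and 5.70. Ly6e did not follow, at 102.0, 82.9 and 170.4 CPM.

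Macrophage-like cells were spread over clusters 4, 5 and 6 in different proportions, with 144, 251 and 111 cells in control DC, 659, 364 and 247 in Ndrg2-KO DC and 316, 209 and 247 in blank hydrogel wounds. In macrophage-like cells 9 of 39 members were at least 2-fold higher in Ndrg2-KO DC than in control DC wounds (3.53% of genes) and 0 lower (1.06% of genes). In blank hydrogel wounds 3 were higher (1.61% of genes) and 1, Oasl1, lower (1.05% of genes). Isg15 stood at 71.8, 166.8 and 73.5 CPM in macrophage-like cells of control DC, Ndrg2-KO DC and blank hydrogel wounds. Ifitm3 stood at 629.1, 1231 and 648.6 CPM. Against control DC wounds the log2 ratios of Isg15 were 1.22 with Ndrg2-KO DCs and 0.03 with blank hydrogels, and those of Ifitm3 0.97, under 2-fold, and 0.04. Oasl1 stood at 74.3, 48.6 and 31.6 CPM, highest with control DCs, where cluster 5 was the largest. Within cluster 5 Oasl1 stood at 116.7, 95.98 and 83.3 CPM in the same order of wounds.

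In monocyte-like cells 5 of 33 members were at least 2-fold higher in Ndrg2-KO DC wounds (1.17% of genes) and 9 of 32 in blank hydrogel wounds (1.3% of genes), with 0 lower in either (0.38% and 0.469% of genes). In fibroblast-like cells 5 of 35 were higher in Ndrg2-KO DC wounds (3.03% of genes) and 11 of 34 in blank hydrogel wounds (1.26% of genes), with 0 lower (1.06% and 0.566% of genes). Isg15 stood at 54.0, 116.6 and 110.6 CPM in fibroblast-like cells of control DC, Ndrg2-KO DC and blank hydrogel wounds, and Rsad2 at 10.6, 29.7 and 28.9 CPM. Both were at least 2-fold over control DC wounds in each of the other wounds. Ifit1 and Gbp5 were at least 2-fold higher than in control DC wounds in neutrophil-like, macrophage-like and fibroblast-like cells of both other wounds.

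**Figure D5:**
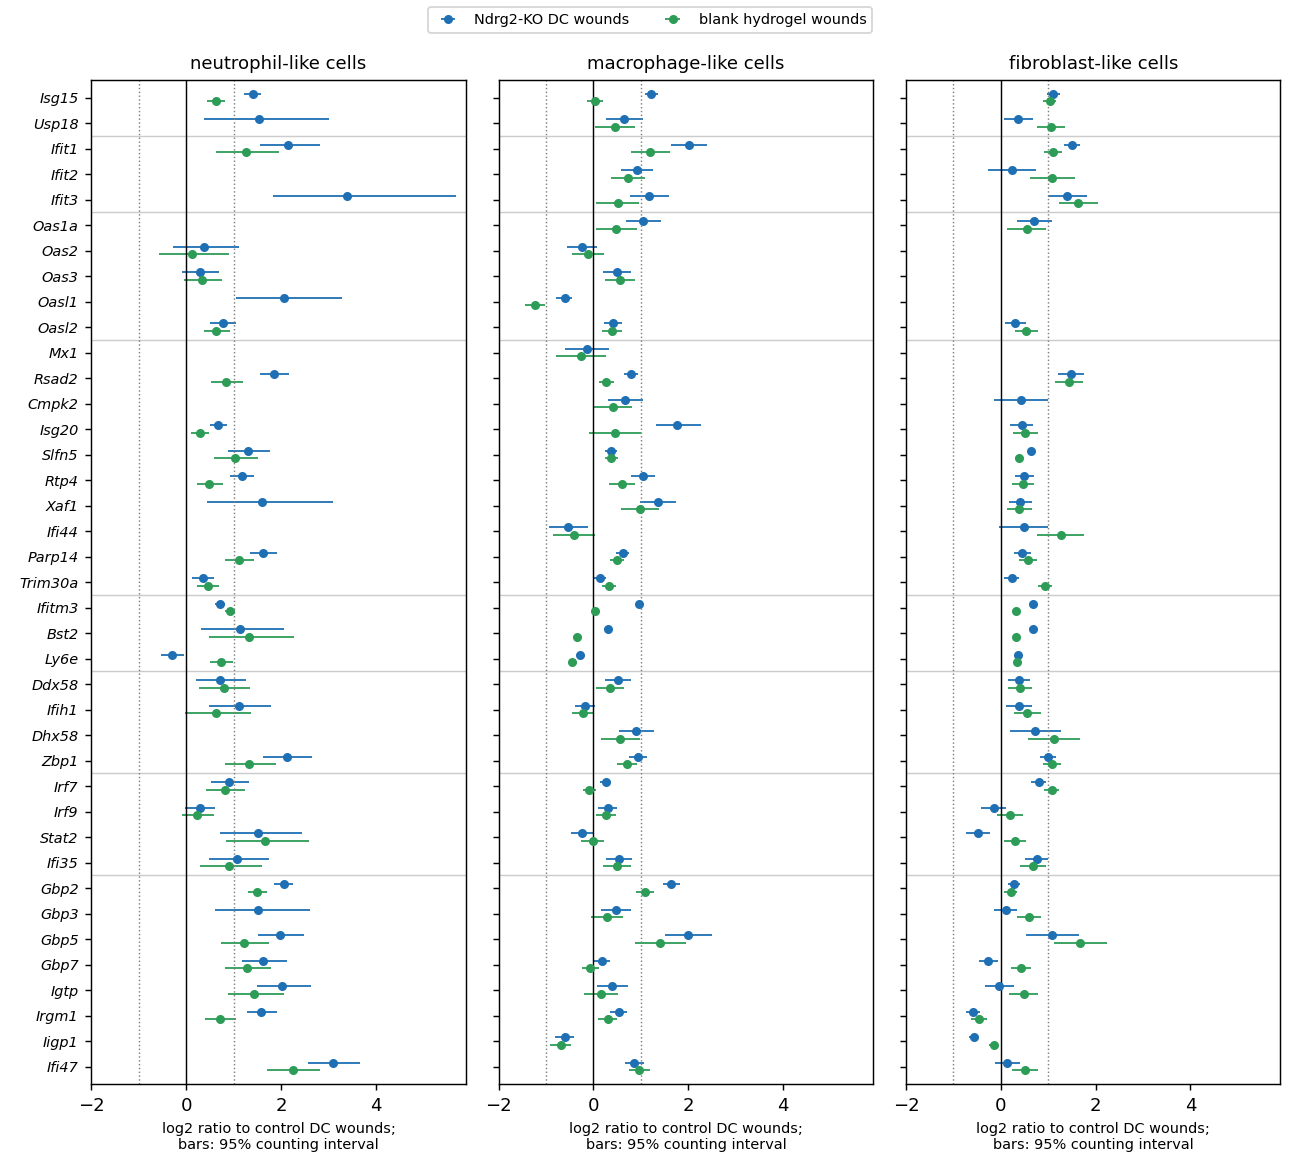
Log2 ratio of each member in Ndrg2-KO DC and blank hydrogel wounds to control DC wounds, within neutrophil-like, macrophage-like and fibroblast-like cells, for members with at least 100 UMIs in the cells compared. Bars are exact 95% counting intervals and dotted lines mark 2-fold; Ifi47 reaches 3.09 in neutrophil-like cells of Ndrg2-KO DC wounds, and Oasl1 is negative in macrophage-like cells.

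The share of wound cells with UMIs of at least 3 members, after each cell was drawn to 1000 UMIs, was 27.4% of 1923 cells with control DCs (25.4 to 29.4%), 39.7% of 5586 cells with Ndrg2-KO DCs (38.4 to 40.9%) and 35.4% of 3338 cells with blank hydrogels (33.7 to 37.0%). Without thinning it was 79.9%, 76.7% and 76.7%, with median depths of 10795, 4415 and 5603 UMIs per cell. In neutrophil-like cells the thinned shares were 13.5%, 36.7% and 32.0%, in macrophage-like cells 34.7%, 44.6% and 36.4% and in monocyte-like cells 36.6%, 50.9% and 54.5%. The highest 10% of cells held 47.95%, 52.53% and 49.29% of the UMIs of the members other than Ifitm3, Bst2 and Ly6e.

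Interferon RNA was rare in the wounds, where 1 of 12 genes reached 100 UMIs in a comparison. Ifnb1 had 4, 33 and 4 UMIs (0.135, 0.670 and 0.115 CPM) in control DC, Ndrg2-KO DC and blank hydrogel wounds, and 24 of the 41 lay in fibroblast-like cells. Ifng had 32, 78 and 36 UMIs, or 1.08, 1.58 and 1.03 CPM with overlapping intervals. Of its 146 UMIs, 78 lay in T-like and 34 in NK-like cells. Of the 10 genes of receptors and signalling with at least 100 UMIs, of 11 listed, 0 were 2-fold apart between any 2 wounds. Of the other interferon-induced genes 16 of 83 were at least 2-fold higher in Ndrg2-KO DC than in control DC wounds (3.92% of all genes) and 1 lower (5.28%). In blank hydrogel wounds 9 of 79 were higher (3.06%) and 1 lower (3.17%). Between Ndrg2-KO DC and blank hydrogel wounds 2 of 83 were higher (1.39%) and 0 lower (1.32%), near the shares of all genes. Cd274, which encodes the checkpoint ligand PD-L1, stood at 37.3, 177.1 and 103.3 CPM, and Slfn4, a myeloid Schlafen gene, at 51.5, 162.5 and 167.2 CPM. The gene lower in both was Cxcl9, a chemokine for T cells induced by interferon-gamma, at 76.5, 23.8 and 32.3 CPM. Of the sensors and adaptors 1, Ikbke, was higher in Ndrg2-KO DC wounds (35.9 against 15.4 CPM), and of the restraints 1, Ptpn6, in blank hydrogel wounds (63.1 against 28.0 CPM).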

How the data were processed

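The data are 6 libraries, 1 per condition, grouped by the labels. The authors deposited whole-number UMI counts for each gene in each barcode, produced by Cell Ranger 3.1.0 (DCs) and 6.0.0 (wounds) per the file headers from reads aligned to mm10. The submitters' processing notes also list mm9 and Seurat 3.1.1, and no step here rests on coordinates of the files. The deposited counts carry no normalization and cover barcodes that Cell Ranger took for cells.

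The cell filter was 300 genes or more, fewer than 100000 UMIs and a mitochondrial share below 10%. UMIs were summed over cells and scaled to 1000000 (CPM). Intervals at 95% were exact (Poisson for CPM, conditional binomial for ratios, Clopper-Pearson for shares). At this depth 3 UMIs are 0.0209 to 0.0258 CPM in the DC and 0.0609 to 0.101 CPM in the wound libraries. All DCs and all wound cells were clustered with Seurat 5.3.0 (R 4.3.3, 2000 variable genes without the members and lists, 15 principal components, 15 neighbours, Louvain resolution 0.5), and clusters were named "-like" from fixed markers. Scrublet in scanpy 1.11.5 marked at most 0.873% of a library's cells, too few to have worked in the large libraries, so doublets were kept and an alternative left out the highest 6% of scores. Sums and intervals were made in Python 3.11.15 (SciPy 1.17.1, pandas 2.3.3, NumPy 2.4.6), and the steps were tested on simulated data.

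The members and the lists (interferons, receptors and signalling, sensors and adaptors, restraints, other interferon-induced genes, cell markers) were chosen with earlier results of these data known. Values are printed for members with at least 2000 UMIs in 1 DC library or at least 2-fold apart with 100 UMIs in a comparison, and for list genes 2-fold apart as examples. Alternatives covered the cell filter, doublets, scaling, the mean over cells, the UMI minimum, the fold, the depth of thinning, clustering and the promoter window.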

Additional observations from a re-analysis of the deposited data

How the results depend on the processing

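With 1 library per condition, all values lack a replicate check, and the precision shown is that of counting. No paired analysis was possible because each condition has 1 library. Over 9 alternatives, the log2 ratios of single members between whole libraries gave 1824 values, of which 1333 stayed within the counting interval, 491 moved beyond it and 0 turned from 2-fold in one direction to the other. Members at least 2-fold higher in Ndrg2-KO than in untreated DCs numbered 19 to 23 over the alternatives that kept this fold. At 1.5-fold, where the share of all genes was not counted, 26 were higher. Members at least 2-fold higher in blank hydrogel than in control DC wounds numbered 6 as given (3.06% of genes). They numbered 4 without the highest doublet scores and 8 with median-ratio scaling. The counts of lower members moved as well. With cells under 5% mitochondrial UMIs they were 1 for Ndrg2-KO against untreated DCs, 0 for VD3 stimulated against untreated DCs and 2 for Ndrg2-KO against VD3 stimulated DCs. With the mean over cells they were 1 and 2 in the first 2 of these and 2 for Ndrg2-KO DC against control DC wounds. For VD3 stimulated DCs the count of lower members was 2 with at least 20 UMIs, 6 at 1.5-fold and, chosen after seeing the data, 3 without shallow clusters. At 1.5-fold 20 members were higher in Ndrg2-KO DC and 19 in blank hydrogel than in control DC wounds, and 6 were higher and 1 lower in Ndrg2-KO DC than in blank hydrogel wounds. Shares of all genes were not counted at 1.5-fold, so none of the counts at that fold is read as a result about the members. With clusters weighted alike, also chosen after seeing the data, 0 were lower in either wound. The cause of these shifts was not tested. Between whole libraries, median log2 ratios of all genes lay within 0.1 of 0 except -0.144 for Ndrg2-KO DC against control DC wounds, and median-ratio scaling gave 16 higher members there.

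The share of cells with several members depended on depth. In the untreated, VD3 and Ndrg2-KO cultures it was 0.459%, 0.778% and 1.73% at 1000 UMIs per cell and 72.8%, 68.7% and 90.2% without thinning. Without Ifitm3, Bst2 and Ly6e, an alternative chosen after seeing the data, it was 0.663%, 1.16% and 2.74%, and with cells under 5% mitochondrial UMIs it was 5.55% in VD3 stimulated DCs. For control DC, Ndrg2-KO DC and blank hydrogel wounds it was 11.4%, 21.3% and 18.2% at 500 UMIs, 79.9%, 76.7% and 76.7% without thinning and 10.4%, 23.8% and 20.2% without the 3 genes. Over the 3 wounds together, the summed members at resolution 1.0 were 4566 CPM in macrophage-like, 4614 CPM in monocyte-like and 3154 CPM in fibroblast-like cells, against 3988, 4543 and 3248 CPM. With 30 principal components they were 4040 CPM in macrophage-like, 3150 CPM in fibroblast-like, 1695 CPM in dendritic-like (3468 CPM as reported) and 5641 CPM in endothelial-like cells (6255 CPM). The core letters followed by C were in 15 of 30 promoters (0.9436% of genes), and 16 held the core within 150 bases before the start (2.39%).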

Other observations

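Some wound cell types were too small for counts of members but had levels of their own. Dendritic-like cells, 33, 72 and 72 in control DC, Ndrg2-KO DC and blank hydrogel wounds, held summed members of 2591, 4137 and 3295 CPM. Over the 3 wounds together the level of dendritic-like cells, 3468 CPM, was 1695 CPM when cells were clustered on 30 principal components. T-like cells held 1737, 2993 and 2071 CPM, and NK-like cells 1530, 2179 and 2098 CPM. Endothelial-like cells, 27, 18 and 10 in number, held 7150, 6724 and 4439 CPM, above every other named type of the same wound except monocyte-like cells of blank hydrogel wounds, which held 4510 CPM. Macrophage-like cluster 5 by itself held 4830, 6516 and 6125 CPM, in blank hydrogel wounds above the endothelial-like cells. Igtp, an immunity-related GTPase, stood at 48.1, 148.4 and 69.9 CPM in T-like cells, against 17.2, 70.3 and 46.7 CPM in neutrophil-like cells.

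In the cultures, cDC1-like cells, the DC type that presents antigen to killer T cells, had an Ifitm3 level of 801.1 CPM without treatment (77 cells) and 3853 CPM after VD3 (152 cells). Neutrophil-like cells of the untreated culture held more Oas3 (5.73 CPM), Oasl2 (18.9 CPM) and Rtp4 (7.01 CPM) than its mature DC-like cells (1.17, 1.80 and 0.0973 CPM, the last on few UMIs). The Ndrg2-KO culture, with 37 neutrophil-like cells, was the highest of the 3 cultures for these members over all cells.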
